A study of Danio rerio with 2 samples.

Results

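Cytochrome P450 genes (cyp genes) outside bile acid and sterol synthesis were read from liver RNA of zebrafish (Danio rerio) on a high-fat diet, in wild-type fish and in fish with a knockout of ambp, which encodes the precursor of the plasma proteins alpha-1-microglobulin and bikunin. Members were all genes whose deposited symbol or zebrafish name begins with cyp, a family number and a letter, except names that begin with cyp51, cyp7, cyp8 or cyp27. There were 77 of them among 25939 genes, and 15 P450 genes were left out by those names. Of the 77, 71 carry a zebrafish P450 name and 6 were found by the deposited symbol alone, which gives the name of a related gene in another species. The only member of family 39 in the table, cyp39a1, stayed in by the rule although its human counterpart acts on bile acid precursors.

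Each genotype was represented by a single library of poly(A) RNA, with 15659846 wild-type and 18357830 knockout reads. Both groups were fed the same high-fat diet. How many fish went into a library, their age and the knockout allele are not stated in the labels. The targeted gene ambp had 50280 reads in the wild-type library and 3085, a level 22.8-fold lower, in the library labelled as knockout. With 1 library per genotype no difference has a replicate check, so no p-value is given, and the 95% intervals printed below cover counting error alone. In bulk liver RNA, fewer cells of a type and less RNA per cell cannot be told apart.

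P450 enzymes are heme proteins that insert an oxygen atom into their substrates. Those in the endoplasmic reticulum receive electrons from NADPH through P450 oxidoreductase (por), and those in mitochondria receive them through ferredoxin and ferredoxin reductase. In liver, families 1, 2 and 3 oxidise drugs, pollutants and polyunsaturated fatty acids, and family 4 hydroxylates the far end of fatty acid chains. Families 24 and 26 break down vitamin D and retinoic acid, and families 11, 17, 19 and 21 make steroid hormones, mainly in interrenal and gonadal cells. Fishes hold many family 2 genes in tandem arrays that have no single mammalian counterpart, and for most of these the substrates are not known to match those of the mammalian namesake.

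Of the 77 genes, 48 reached 1 CPM (read count scaled by library size and TMM factors) in at least 1 library and were kept for comparison. Another 11 had no read in either library, and the remaining 18 had at most 8 wild-type and 14 knockout reads. Of the 48, 42 reached 1 CPM in wild type, 6 passed through the knockout library alone and 0 through wild type alone, so the kept set leans towards genes that were higher in the knockout. The log2 ratio compares knockout with wild type after 1 CPM is added to both, and a 2-fold difference on that scale is called higher or lower.

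By this rule 8 of the 48 were higher in the knockout and 1 was lower. Of the 42 that reached 1 CPM in wild type, 5 were higher and 1 was lower. The share of all genes under that wild-type filter was not counted. Among all 11634 genes kept, 5.4% were higher and 6.4% were lower. The same shares stand beside the counts given below for families, gene lists and cell type markers. Of the 34 P450 genes with at least 100 reads in a library 5 were higher and 1 was lower, against 5.64% and 8.1% of all genes with that many reads. The counting interval of the ratio lay above 1 for 24 of the 48 and below 1 for 8, against 27.2% and 29.6% of all genes kept. Log2 ratios were above 0 for 35 of the 48 P450 genes, against 49.8% of all genes kept, and for 29 of the 42 that reached 1 CPM in wild type. The median log2 ratio was 0.29 over the 48, and it was -0.00 over all genes kept. Signs were then compared in 5 settings. These were TMM, library totals, DESeq2 size factors, totals without the 20 most counted genes, and the deposited FPKM with 1 FPKM added. Across them 33 of the 48 were above 0 throughout, 7 were below 0 throughout and 8 changed sign. The matching shares of all genes were not counted. Library totals, totals without the 20 most counted genes and FPKM raised the all-gene median, which favours values above 0 for any gene. The 33 also include 6 genes under 1 CPM in wild type, whose sign on the TMM scale was fixed by the filter. Scaling by library totals moved the median of all genes to 0.22, with 11 P450 genes then called higher and 1 lower, against 9.12% and 4.13% of all genes kept at that scaling.

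**Figure D1:**
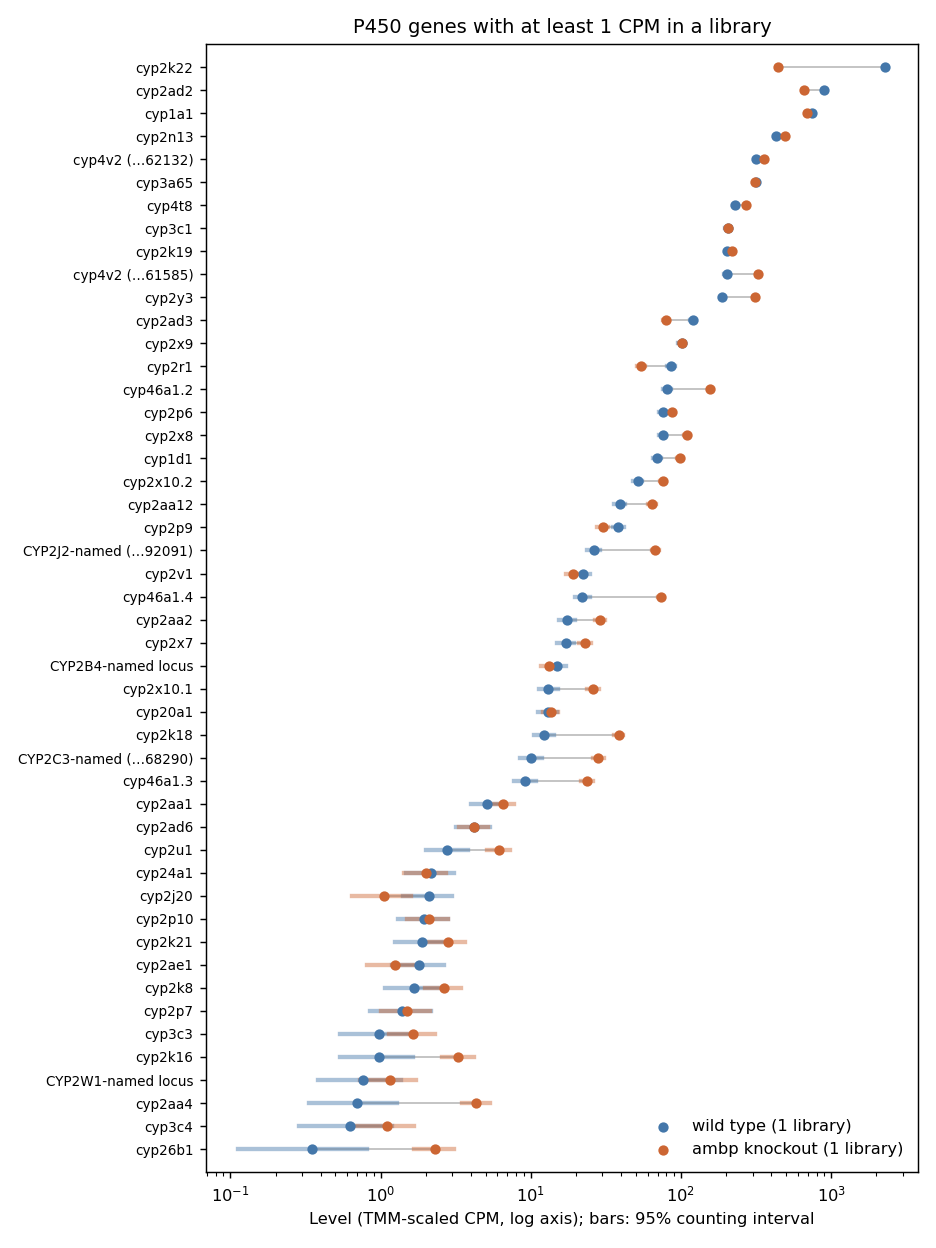
Level of each of the 48 kept P450 genes in the wild-type (blue) and knockout (orange) library, in TMM-scaled CPM on a log axis, ordered by the wild-type level; pale bars are 95% counting intervals and each point is a single library. The gene cyp2k22 drops from the highest wild-type level, 2294 CPM, to 445 CPM, while 35 of the 48 genes lie further right in the knockout.

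The most abundant P450 transcript of the wild-type liver was the only one past 2-fold in the downward direction. The family 2 gene cyp2k22 (ENSDARG00000040433, cyp2k6 in the deposited table) had 32903 wild-type and 8918 knockout reads. Its level was 2294 CPM (2269 to 2319) in the wild-type and 445 CPM (436 to 454) in the knockout library, 5.16-fold lower (5.04 to 5.28), with a log2 ratio of -2.36. Among all 11634 genes kept it ranked 46 from the lowest ratio. Across the alternative scalings, pseudocounts and FPKM its log2 ratio lay between -2.38 and -2.11.

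The per-length ranking of the P450 genes changed with it. In deposited FPKM, which divides by gene length, cyp2k22 stood at 1194 in wild type, rank 1 of the 77 P450 genes and rank 94 of all genes in the table. In the knockout it stood at 276 FPKM, rank 4 among the P450 genes and rank 286 overall. Another family 2 gene, cyp2ad2, moved from rank 2 to rank 1 at 433 and 379 FPKM, and cyp2n13 from rank 3 to rank 2 at 281 and 355 FPKM. For cyp2n13 the gene length implied by count and FPKM was 1.39 kb in the wild-type and 1.51 kb in the knockout library, so the order of ranks 1 and 2 in the knockout is uncertain. The next place in the knockout was held by cyp1a1, at 261 and 288 FPKM, and rank 5 was held by cyp3a65 in both libraries. No replicate spread exists to say which neighbours in this order differ.

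The summed output of the 77 genes was smaller in the knockout with cyp2k22 counted and larger without it. All members together had 99920 wild-type and 111186 knockout reads, which is 0.638% and 0.606% of the libraries. On the TMM scale the sum was 6967 CPM (6923 to 7010) in the wild-type and 5547 CPM (5515 to 5580) in the knockout library, a ratio of 0.796 (0.789 to 0.803). Without cyp2k22 the sums were 4673 and 5102 CPM, a ratio of 1.09. Library totals gave 0.949 with cyp2k22 and 1.30 without it. The share of P450 reads taken by cyp2k22 was 32.9% in the wild-type and 8.02% in the knockout library. That of family 2 as a whole was 68.3% and 54.3%.

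**Figure D2:**
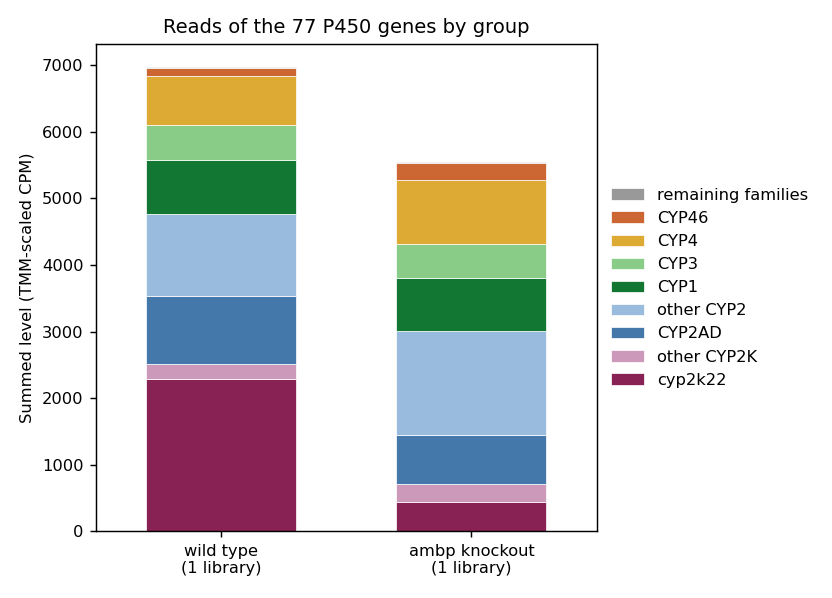
Summed level of the 77 P450 genes in each library (TMM-scaled CPM, 1 library per bar), stacked by gene or family. The dark segment of cyp2k22 takes 2294 of 6967 CPM in wild type and 445 of 5547 CPM in the knockout, and the CYP4 and CYP46 segments are taller in the knockout.

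Family 1 enzymes oxidise planar aromatic compounds, and their genes are classical targets of the aryl hydrocarbon receptor. The main member, cyp1a1 (ENSDARG00000098315, the only CYP1A gene of zebrafish), had 10665 wild-type and 13811 knockout reads. Its levels were 744 CPM (730 to 758) and 689 CPM (678 to 701), and the log2 ratio of -0.11 turned to 0.14 with library totals, so its direction depended on the scaling. The related cyp1d1, which in zebrafish responds little to that receptor's ligands, was at 69.7 CPM (65.5 to 74.2) in the wild-type and 98.8 CPM (94.5 to 103) in the knockout library, 1.42-fold higher (1.31 to 1.53) but under the 2-fold rule. No read of cyp1b1 was counted in either library, and cyp1c2 had 5 and 6 reads. The 95% counting interval of a count of 0 reaches 0.257 CPM in the wild-type and 0.184 CPM in the knockout library.

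Other genes of this receptor's pathway stayed within 2-fold where they were kept, apart from its partner arnt. That gene had 1 wild-type and 27 knockout reads and passed the filter through the knockout alone, which fixed its sign. The receptor form that mediates most such responses in zebrafish, ahr2, had 594 wild-type and 971 knockout reads (log2 ratio 0.22). Among all genes kept 11.8% passed the 2-fold rule in either direction, a share at which few or none of 6 genes would. Of 12 matched genes other than P450s that are known to respond to the receptor, 6 were kept and 0 passed that rule, with a median of -0.24. In that list the glucuronosyltransferase gene ugt1a1 had 0.69 the quinone reductase gene nqo1 -0.62 and the glutathione transferase gene gstp1.2 -0.29. The receptor's repressor ahrra had no read and ahrrb had 1 in each library.

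Family 3 holds the main drug-oxidising enzymes of vertebrate liver and gut, which in zebrafish are cyp3a65 and the cyp3c genes. With 4500 wild-type and 6218 knockout reads, cyp3a65 stood at 314 CPM (305 to 323) and 310.2 CPM (303 to 318), and its ratio of 0.989 had an interval of 0.951 to 1.03. The levels of cyp3c1 were 205 CPM and 207 CPM, from 2935 and 4143 reads. These 2 genes held nearly all family 3 reads, and their counting intervals overlapped between the libraries. Library totals gave log2 ratios of 0.24 and 0.27 for them. The other 3, cyp3c2, cyp3c3 and cyp3c4, had at most 14 wild-type and 33 knockout reads. The pregnane X receptor gene nr1i2, whose product controls CYP3A genes in mammals and fish, had 50 and 129 reads (log2 ratio 0.73).

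Family 2 held 46 of the 77 genes, of which 33 were kept, 5 were higher, 1 was lower and 23 had log2 ratios above 0. The shares of all genes kept were 5.4%, 6.4% and 49.8%. Without cyp2k22 its summed level had a ratio of 1.04 between the libraries, so the remaining genes did not share the direction of cyp2k22 in sum. Of the 10 CYP2K genes, 8 lie in a run of neighbours in the RefSeq gene order of GRCz12tu, from cyp2k18 to cyp2k6. Outside it are cyp2k22 and cyp2k31, and of these cyp2k31 had no read in either library. In that run 5 genes were kept, all 5 had log2 ratios above 0, and 2 were called higher. For cyp2k16 the sign was fixed by the filter, since it reached 1 CPM in the knockout alone.

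Within the run cyp2k18 had 177 wild-type and 770 knockout reads. Its level was 12.3 CPM (10.6 to 14.3) in the wild-type and 38.4 CPM (35.8 to 41.2) in the knockout library, 3.11-fold higher (2.64 to 3.69). The neighbouring cyp2k16 had 14 and 66 reads (log2 ratio 1.12), a call that rests on few reads. Its FPKM was 0.48 and 1.92, which gave a log2 ratio of 0.98 once 1 FPKM was added to both. The most abundant gene of the run, cyp2k19, had 203 CPM in the wild-type and 217 CPM in the knockout library (log2 ratio 0.10). For cyp2k21, with 27 and 56 reads, the deposited count and FPKM disagreed: the log2 ratio was 0.40 from counts and 1.27 from FPKM, and the gene length implied by count and FPKM was not the same in both libraries. Values of cyp2k21 are therefore uncertain.

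A second run of 11 neighbours, from cyp2n13 to cyp2j20, held some of the most abundant P450 genes of this liver and stayed within 2-fold throughout. Relatives of this run in mammals, such as human CYP2J2, turn polyunsaturated fatty acids into epoxides. Of 10 kept genes, 5 had log2 ratios above 0, and the range of log2 ratios was -0.59 to 0.20. Among all genes kept 11.8% passed 2-fold in either direction, a share at which few of 10 genes would. The lowest value was that of cyp2j20, on 30 wild-type and 21 knockout reads. Without the pseudocount it was 1.996-fold lower (1.11 to 3.67). The gene cyp2ad2 had 12905 wild-type and 13229 knockout reads. Its level was 899.8 CPM (884 to 915) in the wild-type and 660.0 CPM (649 to 671) in the knockout library, 1.36-fold lower (1.33 to 1.40). Its neighbour cyp2ad3 was at 119.8 and 79.7 CPM, a ratio of 0.665 (0.621 to 0.713). Both genes kept a log2 ratio below 0 in all 5 settings. By contrast cyp2n13, at the end of the run, was at 427 CPM (416 to 438) and 490.3 CPM (481 to 500.1), a log2 ratio of 0.20. In the same run the 4 kept CYP2P genes ranged from -0.34 for cyp2p9 to 0.19 for cyp2p6 on the log2 scale. The log2 ratio of cyp2p9 was also below 0 in all 5 settings.

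The CYP2AA, CYP2X and CYP2Y genes lay mostly above 0. In the run from cyp2aa12 to cyp2ae1, 10 genes were in the table and 5 were kept. The most abundant, cyp2aa12, was at 39.1 CPM (35.9 to 42.5) in the wild-type and 64.1 CPM (60.7 to 67.7) in the knockout library, a log2 ratio of 0.70 that is subject to a disagreement between count and FPKM of under 1.5 times. Its neighbour cyp2aa2 also had a log2 ratio of 0.70, from 251 and 581 reads. The only gene of this run called higher was cyp2aa4, from 10 reads in wild type to 87 in the knockout, 6.23-fold (3.23 to 13.4). Like cyp2k16, it passed the filter through the knockout alone, which fixed its sign. The 5 kept CYP2X genes ranged from -0.00 for cyp2x9 to 0.94 for cyp2x10.1, which had 188 and 521 reads and lay just short of the 2-fold rule. The abundant cyp2y3 had 2693 wild-type and 6266 knockout reads, 1.67-fold higher (1.59 to 1.74).

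**Figure D3:**
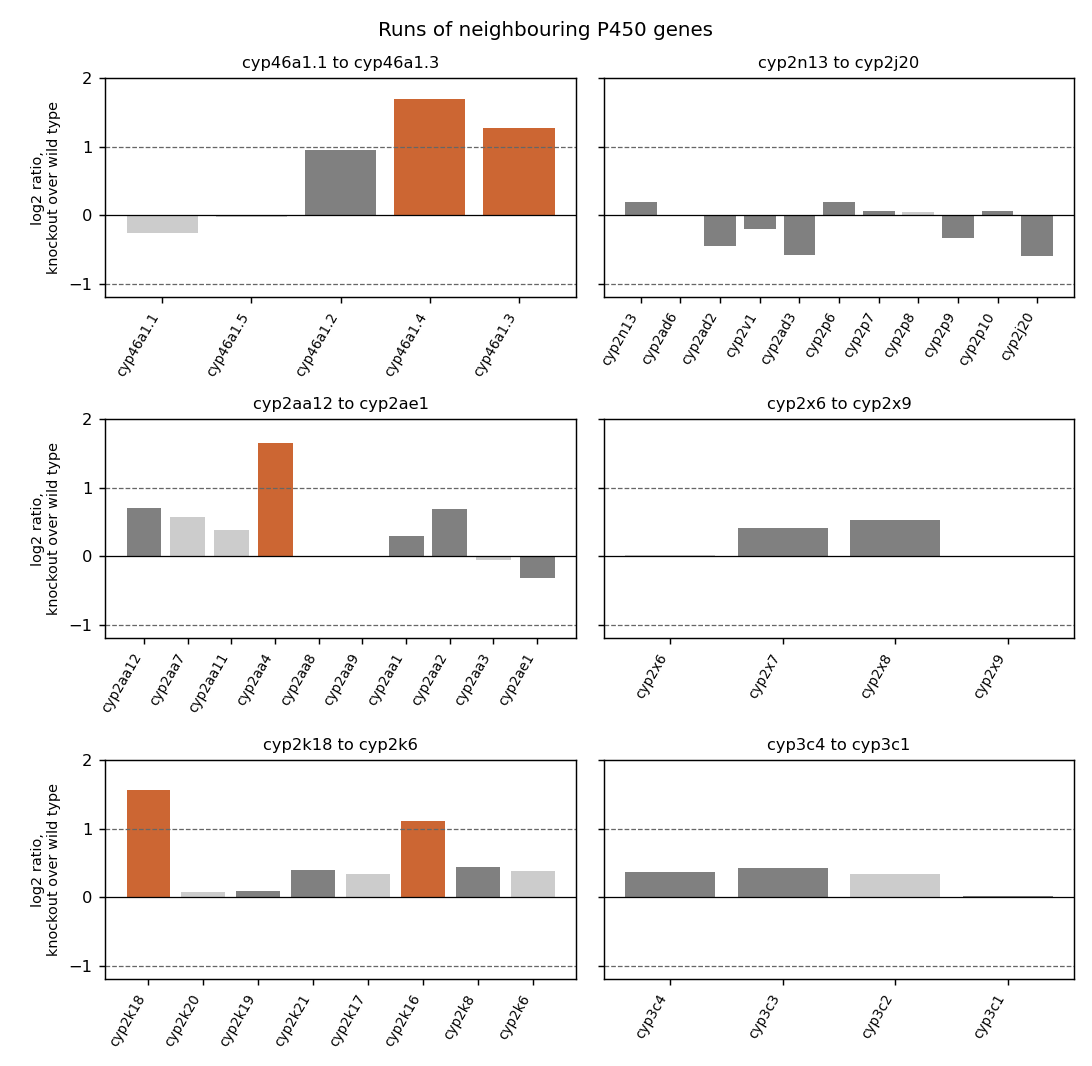
Log2 ratio of knockout over wild type for P450 genes that neighbour each other, in RefSeq gene order, 1 panel per run; orange bars are past 2-fold, dark grey bars are within it, pale grey bars did not reach 1 CPM, and dashed lines mark 2-fold. The run from cyp2n13 to cyp2j20 stays between -0.59 and 0.20, and the last 3 genes of the cyp46a1 run stand at 0.95, 1.69 and 1.28.

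The genes called higher in family 2 also included 2 known here by identifier. ENSDARG00000068290, named CYP2C3 in the deposited table, had 144 wild-type and 564 knockout reads, 2.80-fold higher (2.33 to 3.39). ENSDARG00000092091, named CYP2J2 there, had 376 and 1350 reads, 2.57-fold higher (2.29 to 2.89). Both had estimated counts that were not whole numbers, as did 19 of the 77 genes and 14 of the 48 kept. Whether reads of close copies were divided between genes was not tested, so these levels are uncertain. The deposited symbol CYP2J2 was carried by several distinct zebrafish genes, including cyp2ad2, cyp2p9 and cyp2v1.

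Family 4 enzymes start the omega-oxidation of fatty acids, a route beside beta-oxidation, and all 3 kept genes were higher without reaching 2-fold. The gene cyp4t8 was at 228 CPM (220.4 to 236) in the wild-type and 269 CPM (262 to 276) in the knockout library. The name cyp4v2 is carried by 2 genes, after the human gene mutated in a crystalline retinal dystrophy. Of these, ENSDARG00000062132 was at 315 and 359 CPM, a log2 ratio of 0.19. ENSDARG00000061585 was at 202 CPM (194 to 209) and 326 CPM (318 to 334), 1.62-fold higher (1.55 to 1.69), with counts that were not whole. The summed level of the family was 744 CPM in the wild-type and 954 CPM in the knockout library, a ratio of 1.28 (1.25 to 1.31), which was 1.53 with library totals and 1.27 with DESeq2 size factors. A further fatty acid hydroxylase, cyp2u1, had 40 wild-type and 123 knockout reads (log2 ratio 0.91), just short of the 2-fold rule. The soluble epoxide hydrolase gene ephx2, whose product opens fatty acid epoxides, had 243 and 828 reads and a log2 ratio of 1.24.

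Of the 4 families with at least 3 genes kept, family 46 had the highest median log2 ratio, 1.28. In mammals CYP46A1 hydroxylates cholesterol, mainly in neurons, and zebrafish have 5 genes of that name next to each other. The gene cyp46a1.4 had 317 wild-type and 1476 knockout reads, at 22.1 CPM (19.7 to 24.7) and 73.6 CPM (69.9 to 77.5), which is 3.33-fold higher (2.95 to 3.77). It ranked 113 from the highest ratio among all genes kept. Its neighbour cyp46a1.3 had 132 and 477 reads, 2.59-fold higher (2.13 to 3.16). The most abundant, cyp46a1.2, had 1157 and 3144 reads, at 80.7 and 157 CPM, 1.94-fold higher (1.82 to 2.08), which became a log2 ratio of 1.19 with FPKM. The remaining 2, cyp46a1.1 and cyp46a1.5, had 8 and 4 wild-type reads and 6 and 5 knockout reads. In sum the 5 genes had 1618 wild-type and 5108 knockout reads, a ratio of 2.26 (2.14 to 2.39), and their share of P450 reads was 1.62% and 4.59%. Counts of cyp46a1.1, cyp46a1.2, cyp46a1.4 and cyp46a1.5 were not whole. Whether reads were divided between these copies was not tested. The oxysterol hydroxylase gene cyp39a1 had 5 and 7 reads.

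**Figure D4:**
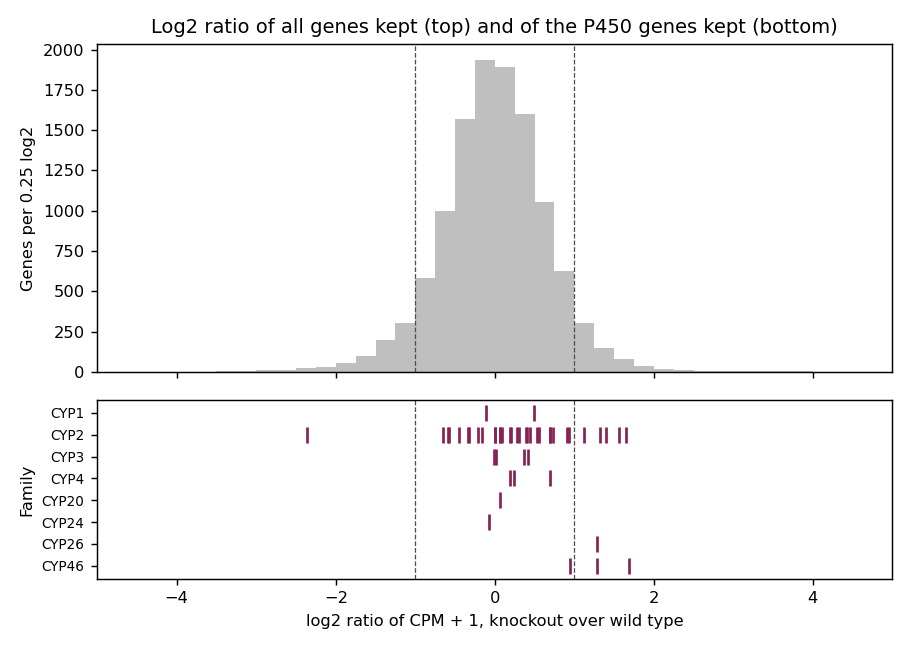
Top, number of genes per 0.25 log2 units of the knockout over wild-type ratio for all 11634 genes kept; bottom, the 48 kept P450 genes by family, 1 tick per gene, with dashed lines at 2-fold. The cyp2k22 tick lies alone at -2.36, and the 3 CYP46 ticks lie between 0.95 and 1.69.

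The 2 vitamin D enzymes among the members, cyp2r1 and cyp24a1, were not called higher. Genes with cyp27 names were left out by the rule and were not read here. A liver enzyme that makes 25-hydroxyvitamin D is encoded by cyp2r1, which had 1233 wild-type and 1089 knockout reads. Its level was 86.0 CPM (81.2 to 90.9) in the wild-type and 54.3 CPM (51.2 to 57.7) in the knockout library, 1.58-fold lower (1.46 to 1.72). The log2 ratio of cyp2r1 was below 0 in all 5 settings. The breakdown enzyme cyp24a1 had 31 and 40 reads, with a ratio of 0.923 (0.563 to 1.53). Its log2 ratio of -0.08 turned to 0.09 with library totals, so its direction depended on the scaling. Of 5 other vitamin D genes 2 were kept and 0 passed the 2-fold rule, with a median of 0.07. The carrier gc had a log2 ratio of -0.18, and 3 genes named vdr, after the receptor, had at most 4 reads in a library.

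The retinoic acid hydroxylase genes were barely expressed. The counts of cyp26b1 were 5 wild-type and 46 knockout reads, at 0.349 CPM (0.113 to 0.814) and 2.30 CPM (1.68 to 3.06), 6.58-fold higher (2.63 to 21.2). It passed the filter through the knockout alone. Its FPKM was 0.08 and 0.65, which gave a log2 ratio of 0.61 once 1 FPKM was added to both, under the 2-fold rule. The counts of cyp26a1 were 6 and 14 reads, and cyp26c1 had none. Of 35 other retinoid genes, 14 were kept, 1 was higher and 0 were lower, with a median of 0.26. The most abundant, rbp4, the plasma retinol carrier, had a log2 ratio of 0.68, the intracellular retinol carrier rbp2 was at -0.05, and the higher one was bco1, which cleaves carotene to retinal, at 1.24 from 18 and 87 reads.

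Steroid hormone synthesis P450s were at or near 0, and 0 of 7 were kept. No read was counted for cyp17a1, cyp17a2, cyp19a1, cyp21a2 and the cyp11a1 gene ENSDARG00000002347, the other cyp11a1 gene had 1 read in wild type, and cyp11c1 had 6 in the knockout. The interrenal tissue markers mc2r and nr5a1 (both copies) also had no read in either library. Of 12 markers of such cells 1 was kept, star, with 18 wild-type and 8 knockout reads. The 12 include P450 genes just named, so that count is not separate from theirs. Steroid genes outside the P450s were expressed, and of 17 kept 5 were lower and 0 higher, with a median of -0.43. Among all genes kept 6.4% were lower and 5.4% higher. Of the 5 lower genes hsd11b2, which inactivates cortisol, was at -2.76, hsd17b3, which reduces sex steroid precursors, at -2.09, hsd20b2 at -1.53 and srd5a2 (ENSDARG00000043587) at -1.12. The steroid carrier shbg was at 0.00, with 13933 and 19532 reads.

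The orphan cyp20a1, whose substrate is not established, had 186 wild-type and 272 knockout reads, at 13.0 CPM (11.2 to 15.0) and 13.6 CPM (12.0 to 15.3). Its interval for the ratio, 0.865 to 1.27, includes 1. The 2 assembled loci without an identifier, named CYP2B4 and CYP2W1 in the deposited table, had log2 ratios of -0.16 and 0.28. The first turned to 0.08 with library totals, and the second passed the filter through the knockout alone.

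Of 14 kept electron donors and heme-handling partners, 4 had log2 ratios above 0, with a median of -0.16. The summed level of that list was 1984 CPM in the wild-type and 1776 CPM in the knockout library. Its ratio was 0.895 (0.881 to 0.909). That sum includes mitochondrial ferredoxin, fdx1, at 329 and 123 CPM, and was not computed without it. The P450 sum had a ratio of 0.796, or 1.09 without cyp2k22. Because the list joins donors of endoplasmic reticulum and mitochondrial P450s, these sums are not a like comparison. The main por gene (ENSDARG00000059035) had 11636 wild-type and 18808 knockout reads, at 811 CPM and 938 CPM, a log2 ratio of 0.21. Cytochrome b5, cyb5a, which assists some P450 reactions, was at -0.32, and the heme-binding partner pgrmc1 at -0.15. Mitochondrial ferredoxin, fdx1, was the only one of 14 kept partner genes past 2-fold, with 4712 and 2470 reads, 329 and 123 CPM, and a log2 ratio of -1.41. Of 9 kept heme synthesis genes 2 were higher and 0 lower, namely uros at 1.01 and ppox, which had 16 and 68 reads, with a median of 0.08. The rate-limiting enzyme of liver heme synthesis, alas1, had 348 and 774 reads (log2 ratio 0.65).

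Among the other enzymes that act on foreign compounds, 3 of 21 kept were higher and 1 lower, with a median of -0.01. The shares of all genes kept were 5.4% and 6.4%. The carboxylesterase gene ces2b had 272 wild-type and 2692 knockout reads, 7.08-fold higher (6.25 to 8.05), while its more abundant relative ces3 was at -0.14. The aldehyde dehydrogenase gene aldh3a2b had 17 and 112 reads (log2 ratio 1.59), and ephx2 was the third. The alcohol dehydrogenase gene adh8a, with 95642 and 64488 reads, was at -1.05. Of 12 kept sensors and their partners 3 were higher and 0 lower: nfe2l2 (1.04 from 984 and 2858 reads), and rxra (ENSDARG00000057737) and arnt on 34 reads or fewer. Both rxra and arnt passed the filter through the knockout alone, which fixed their sign. The median of the 12 was 0.55. The liver factor hnf4a, a regulator of many P450 genes in mammals, had 1668 and 1158 reads, at 116 CPM in the wild-type and 57.8 CPM in the knockout library, 2.01-fold lower (1.87 to 2.17) without the pseudocount and just short of the 2-fold rule with it. In the eicosanoid list 1 of 7 kept genes was higher, the already named ephx2, with a median of 0.11. The gene pla2g12b, listed there by its phospholipase family name, was at -0.34. The thromboxane synthase gene tbxas1, itself a P450 with another name, was at -0.44.

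Markers of other cell types differed between the same libraries. For the counts below, 5.4% of all genes kept were higher and 6.4% lower. Hepatocyte markers were abundant in both, at a sum of 197490 CPM in the wild-type and 171962 CPM in the knockout library. Of 12 kept, 1 was higher, a1cf at a log2 ratio of 2.30, and 0 were lower. Log2 ratios were above 0 for 4 of the 12, with a median of -0.22, and hnf4a was at -0.997. Exocrine pancreas markers summed to 61.3 CPM and 517 CPM, with 15 of 17 kept genes higher and 0 lower. Macrophage markers summed to 364 and 526 CPM, with 6 of 14 higher, and neutrophil markers to 35.4 and 84.0 CPM, with 3 of 5 higher. Intestine markers summed to 2532 and 4076 CPM, with 7 of 17 genes kept and 0 past 2-fold. Most of that sum was the apolipoprotein gene apoa4b.1, at 2177 and 3751 CPM. The fatty acid carrier gene fabp1 (ENSDARG00000059227) was at 54.7 and 107 CPM, fabp2 was at 258 and 169.6 CPM, and fabp6 had 0 and 2 reads. Ovary and testis markers summed to 10.5 and 2.69 CPM, with 3 of 4 lower. The lower ones were insl3 (49 and 6 reads), ddx4 (42 and 10) and dmrt1 (32 and 9). In that list gdf9, zp3, zp2.5 and cyp19a1 had no read in either library. Erythroid markers summed to 466 and 268 CPM, kidney tubule markers to 569.9 and 407 CPM and biliary markers to 2278 and 2709 CPM. For kidney 2 of 5 were lower, for erythroid cells 0 of 5 passed the rule, and for biliary cells 1 of 7 was higher. The 2 lower kidney genes share the name slc20a1. Most of the kidney sum was slc22a2, at 310 and 304 CPM, and slc20a1 (ENSDARG00000010641), at 205 and 57.4 CPM. The kidney markers lrp2, cubn, slc12a3, slc5a2, clcnk and slc13a3 had at most 2 reads in a library. Most of the biliary sum was krt8, at 1094 and 1081 CPM, anxa4, at 514 and 371 CPM, and krt18a.1. The last, the higher one, was at 491 and 1065 CPM. The biliary marker epcam had 37 and 41 reads, and cftr had 4 and 0. The part of these cell types in the P450 values was not tested.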

How the data were processed

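The authors deposited a table with estimated counts per gene and FPKM values for 1 wild-type and 1 knockout liver library, per the file headers. Counts were not whole for 5.45% and 6.01% of genes, and no source says how that arose. Per the submitters' processing notes, the tools were HISAT2 and featureCounts and the build was GRCz11; their roles are not stated. Per the labels' protocols, mRNA was enriched with oligo(dT) beads. Of the sample columns, 4 were used and 0 left unmatched.

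Rounding brought the estimated counts to whole numbers. Zebrafish names matched 23499 of 25939 genes by identifier. TMM factors were 0.916 and 1.09 (edgeR 4.0.16, R 4.3.3); the size factors of DESeq2 1.42.0, an alternative, were 0.842 and 1.19. A single read is worth 0.0697 CPM (wild type) or 0.0499 CPM (knockout). Log2 ratios carry a pseudocount of 1 CPM, which understates low genes; folds carry none. The filter was 1 CPM in at least 1 library. Intervals are exact Poisson for levels and Clopper-Pearson for ratios, at 95%; reads are not independent molecules, so they cover counting error only. The code was tested on simulated data. RefSeq (GRCz12tu) gave names and gene order only, with at most 2 other protein-coding genes between neighbours of a run.

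The members, lists and tests were chosen with earlier results of these data known. Listed names were matched by hand, and all genes of a shared name were counted. Named P450 genes were those with at least 100 reads in a library and past 2-fold, the 3 with the highest FPKM in each family, and members with a textbook role; other P450 genes and list genes outside the rule (the most counted and those past 2-fold with 100 reads), such as cyp2k16, cyp2aa4, cyp2y3, cyp2x10.1 and the CYP2AD, CYP2P and CYP2AA genes, were chosen after their values were seen. Knockout over wild-type ratios of the deposited FPKM and of counts over library totals were within 5% of each other for 40 of 43 P450 genes with at least 1 FPKM in a library. No sequences are shown.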

Additional observations from a re-analysis of the deposited data

How the results depend on the processing

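No paired analysis was possible because each genotype has 1 library. The depth limits genes under about 100 reads, where intervals widen as reads fall. The ratio interval was 0.711 to 1.42 for cyp2ad6 (60 and 84 reads) and 1.88 to 6.50 for cyp2k16 (14 and 66). The 6 named P450 genes with at least 100 reads and past 2-fold stayed past 2-fold in the same direction under 3 other scalings, 2 other pseudocounts and FPKM. Of these genes 5 were higher. Library totals, totals without the 20 most counted genes and FPKM raised the all-gene median, and the pseudocount of 0.1 CPM enlarges ratios. Those settings could hardly take any of these 5 higher genes under 2-fold. Among the higher genes on fewer reads, FPKM took cyp2k16 (log2 ratio 0.98) and cyp26b1 (0.61) under it. With 5 CPM added, cyp46a1.3 was at a log2 ratio of 1.02. Against 8 higher and 1 lower P450 genes, a pseudocount of 5 CPM gave 5 higher (1.3% of all genes kept), the 10 CPM filter 5 higher (4.98%), a 1.5-fold rule 15 higher and 3 lower (16.4% and 16.9%), and a 4-fold rule 0 higher (0.507%). The median of 0.29 was 0.49 with library totals, 0.46 without the 20 most counted genes and 0.45 with FPKM (1 FPKM added), where all-gene medians were 0.22, 0.19 and 0.19. It was 0.18 with 5 CPM and 0.074 with no filter, which adds genes at or near 0 reads. Chosen after seeing the data, leaving out cyp2k22 gave 0 lower, and leaving out genes whose counts were not whole gave 5 higher and a median of 0.19. Calls of cyp2k16, cyp2aa4 and cyp26b1 rest on fewer than 100 reads.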
